A study of Mus musculus with 2 samples.

Results

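The immunoglobulin genes described here are the gene segments, constant regions and helper genes that make up the antibody transcripts found among bone marrow LSK cells of leukemic mice. Members were chosen by symbol and by count. A gene was taken when its symbol starts with Ighv, Ighg, Igkv, Igkc, Iglv or Iglc, or is Ighm, Ighd, Igha, Ighe, Jchain or Mzb1, and when it reached 20 unique molecular identifiers (UMIs) summed over the barcodes with at least 1000 UMIs of both libraries. The rule found 36 members among 363 genes with such symbols and 32285 genes in all. Because the counts themselves chose the members, their totals are a description and carry no test.

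LSK cells, sorted before capture, are the Lin-Sca-1+c-Kit+ fraction of bone marrow, which holds stem cells and early progenitors. The mice of both groups, on the B6 background, were 8 to 10 weeks old and carried SCLtTA/BCR-ABL, in which the SCL promoter drives BCR-ABL in stem and progenitor cells once tetracycline is withdrawn. BCR-ABL had been induced for 2 weeks in both. One library came from mice with intact miR-142 (miR-142 WT CML, called WT below), and the other from mice in which miR-142 is deleted in all cells (miR-142 KO CML, called KO). With 1 library per group, and with the number of mice behind each not stated in the sources used here, no test between the groups was possible, and the intervals below are exact 95% intervals that cover counting error only. The genotype and everything else that set the libraries apart cannot be told apart.

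The WT library held 7074 barcodes with at least 1000 UMIs (144698791 UMIs) and the KO library 6846 (165071579 UMIs), where the study captured about 8000 cells per sample. Mir142hg, the host transcript of the deleted miRNA, stood at 9.73 UMIs per 1000000 UMIs (CPM) in WT and 0.127 in KO. Of the barcode sequences, 9 had at least 1000 UMIs in both libraries, and none of them was among the antibody-rich barcodes below.

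An antibody is made of paired heavy and light chains. During B cell development a heavy chain V segment (Ighv) is joined to D and J segments and then read together with a constant region, first Ighm and Ighd and, after class switching, one of the Ighg, Igha or Ighe genes. Light chains come from the kappa locus (Igkv with Igkc) or from the lambda locus (Iglv with Iglc), and a B cell as a rule keeps 1 heavy and 1 light chain. Plasma cells, the antibody-secreting end stage that resides in bone marrow, devote much of their mRNA to these transcripts. Jchain links IgM and IgA into polymers, and Mzb1 is a chaperone of the endoplasmic reticulum that helps their assembly. V segments, even unrearranged ones, can also be transcribed in early lymphoid cells before an antibody is made.

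A few pairs of V segments recurred between barcodes, and their germline sequences are shown because the pairing is the main pattern in the single-cell data. Each run is the last 120 bases of the germline segment on the coding strand (GENCODE transcripts, GRCm38), with the codons of the conserved tyrosine, aromatic residue and cysteine before the joining site in capitals. The segments lie in the variable exon at chr12:114048241-114048360 (Ighv11-2, minus strand), chr6:67896523-67896642 (Igkv14-126, plus), chr12:113838526-113838645 (Ighv5-16, minus), chr6:68862265-68862384 (Igkv1-88, minus), chr12:113896408-113896527 (Ighv7-1, minus) and chr6:68437806-68437925 (Igkv15-103, plus).
Ighv11-2: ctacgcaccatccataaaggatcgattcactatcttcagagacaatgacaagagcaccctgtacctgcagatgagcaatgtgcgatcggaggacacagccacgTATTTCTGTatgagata
Igkv14-126: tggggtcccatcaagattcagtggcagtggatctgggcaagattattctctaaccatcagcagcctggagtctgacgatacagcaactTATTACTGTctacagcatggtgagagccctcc
Ighv5-16: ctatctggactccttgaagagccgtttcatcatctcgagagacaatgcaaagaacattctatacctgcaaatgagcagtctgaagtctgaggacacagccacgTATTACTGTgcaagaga
Igkv1-88: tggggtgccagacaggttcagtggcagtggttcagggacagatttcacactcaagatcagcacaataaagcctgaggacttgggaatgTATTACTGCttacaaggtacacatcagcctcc
Ighv7-1: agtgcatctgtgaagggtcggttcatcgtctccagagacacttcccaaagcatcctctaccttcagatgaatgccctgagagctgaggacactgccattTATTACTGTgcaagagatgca
Igkv15-103: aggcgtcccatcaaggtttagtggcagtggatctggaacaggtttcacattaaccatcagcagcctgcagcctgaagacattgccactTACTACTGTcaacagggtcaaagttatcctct

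Over the last 280 bases, Ighv11-2 was 98.6% identical to its closest relative Ighv11-1, so the counting may have split or merged their reads, and Ighv11-1 had 0 UMIs in the antibody-rich WT barcodes. The closest relatives of the other 5 segments (Igkv14-111, Ighv5-12, Igkv1-110, Ighv7-2 and Igkv15-101) were 79.0 to 90.7% identical. Of these relatives, only Igkv1-110 had UMIs in those barcodes, 64 in all.

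Further heavy chain segments are shown because their UMIs lay outside antibody-producing barcodes. Ighv1-23 is at chr12:114764450-114764569, Ighv1-77 at chr12:115861867-115861986 and Ighv1-82 at chr12:115952538-115952657, all on the minus strand, and the runs and capitals are as above.
Ighv1-23: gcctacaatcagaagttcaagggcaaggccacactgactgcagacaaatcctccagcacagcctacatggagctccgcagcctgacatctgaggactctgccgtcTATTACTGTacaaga
Ighv1-77: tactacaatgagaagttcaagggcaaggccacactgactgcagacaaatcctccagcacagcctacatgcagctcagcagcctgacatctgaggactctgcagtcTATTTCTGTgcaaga
Ighv1-82: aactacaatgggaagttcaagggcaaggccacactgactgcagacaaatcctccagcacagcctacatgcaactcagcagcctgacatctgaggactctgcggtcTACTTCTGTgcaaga

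Ighv1-23 was 98.2% identical to Ighv1-15 over the last 280 bases, Ighv1-77 95.7% to Ighv1-75 and Ighv1-82 96.1% to Ighv1-80, and Ighv1-77 and Ighv1-82 were 89.8% identical to each other over 294 bases. Counts of these 3 segments may therefore hold reads of their relatives.

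The 36 members comprised 13 of 185 listed Ighv genes, 11 of 160 Igkv genes, 2 of 3 Iglv genes, 4 of 8 heavy constant genes, Igkc, 3 of 4 Iglc genes, Jchain and Mzb1. Another 52 genes had 1 to 19 UMIs and 275 had none. Just inside the floor were Ighv5-17 with 22 UMIs, Ighv1-25 with 21 and Ighg2b with 20, and just outside were Ighv1-69 with 18 and Igkv4-53, Ighv2-3 and Ighv3-8 with 16 each.

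Antibody transcripts were far more abundant in the WT library. Members held 0.493% of WT UMIs (0.492 to 0.494%) and 0.00341% of KO UMIs (0.00332 to 0.00350%), 145-fold apart. Of the 36 members, 35 were at least 2-fold lower in KO, beside 10.0% of all 15560 genes with at least 20 UMIs, and none was 2-fold higher, beside 3.50%. The median log2 ratio (KO over WT) was -5.20 over the members and -0.16 over all genes tested, with a count of 0 set to 3 counts. Of the members, 22 had 0 UMIs in KO and so reached the floor of 20 UMIs through WT alone. The count of 35 and the median were in part fixed by that floor, and they describe the list without testing it. The exception was Ighv1-23, at 4.49 CPM in WT and 5.25 in KO.

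Among the constant regions, Igkc, the single kappa constant gene, stood at 3578 CPM in WT (517749 UMIs) and had 2476 UMIs in KO, 239-fold apart (229 to 248). Ighm, which encodes the IgM heavy chain, stood at 1026 CPM in WT and 13.1 in KO, 78.2-fold apart (log2 ratio of KO over WT -6.29, -6.35 to -6.23). Igha, the IgA heavy chain, had 9524 UMIs in WT and 0 in KO, so it was at least 3622-fold lower in KO against a floor of 3 counts. KO thus had reads of IgM and kappa chains but no IgA read in these barcodes.

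The lambda constant genes Iglc1, Iglc2 and Iglc3 had 2391, 1145 and 720 UMIs in WT, against 4, 0 and 0 in KO. Ighd, the constant region of IgD on naive B cells, was scarce in both, with 42 UMIs in WT and 8 in KO. Ighg2b, an IgG heavy chain, had 19 and 1. The helper gene Jchain stood at 170 CPM in WT and 0.236 in KO, 720-fold apart (526 to 1013), and Mzb1 at 13.4 and 0.0909, 148-fold apart (89.5 to 265). Each of these genes was thus lower in KO.

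Of the V segment members, 22 of 26 genes had 3 UMIs or fewer in KO. The 5 V segments with most KO UMIs were Ighv1-23 (867), Igkv5-48 (23), Ighv1-33 (20), Ighv1-36 (10) and Ighv1-82 (2). These are single-library values, and in bulk totals of this kind fewer antibody-secreting cells and less RNA per cell cannot be told apart.

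**Figure D1:**
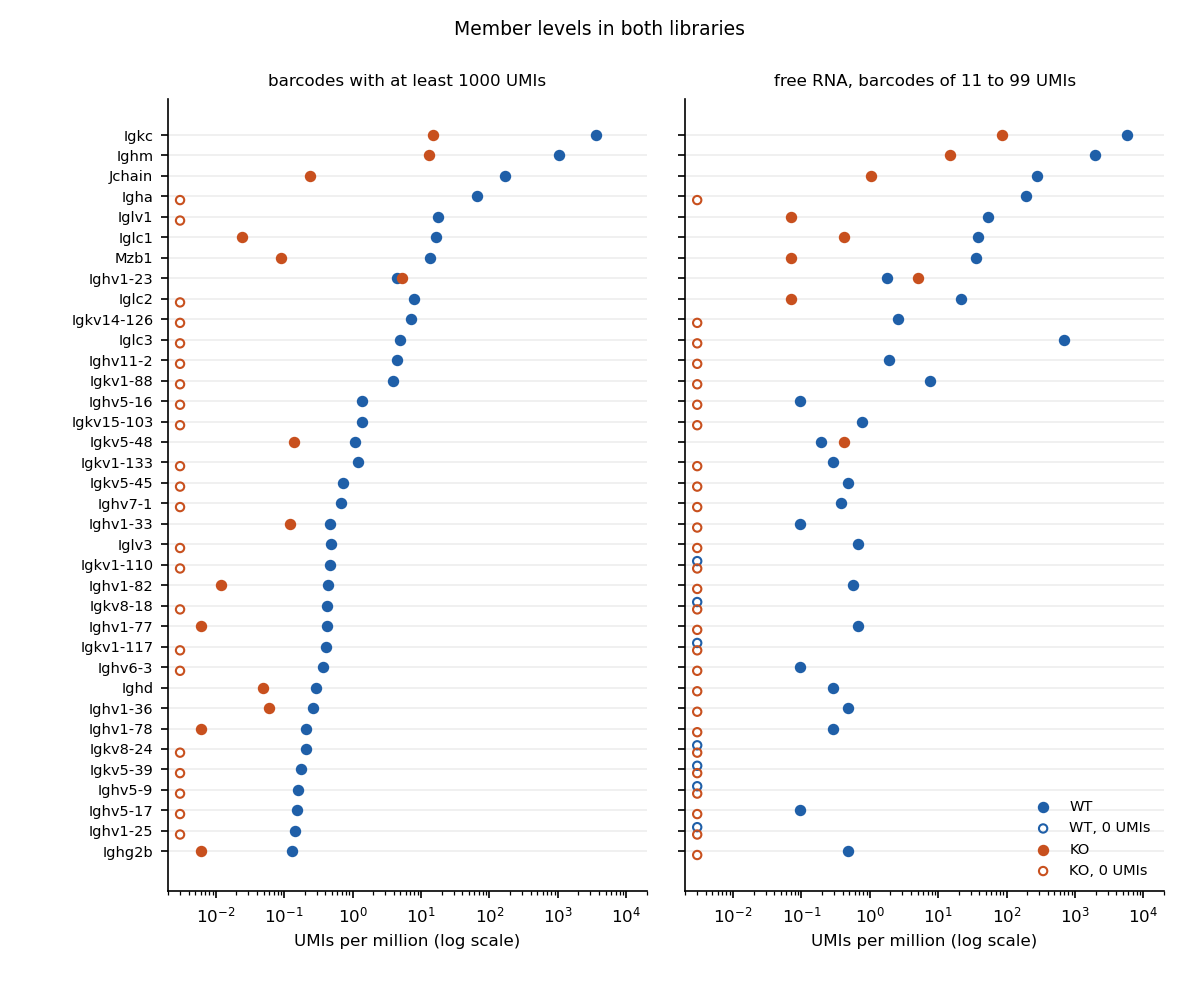
Level of each of the 36 members in CPM on a log axis, in barcodes with at least 1000 UMIs (left) and in free RNA, the barcodes of 11 to 99 UMIs (right). Filled points are WT (blue) and KO (orange), and open points at the left edge mark 0 UMIs; in the left panel all members except Ighv1-23 lie further right in WT, and Iglc3 stands out in WT free RNA at 689 CPM.

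Nearly all of this RNA lay in a handful of barcodes. A barcode was called Ig-high when members held at least 5% of its UMIs, which 41 of 7074 WT barcodes did (0.580%, 0.416 to 0.785%) and 1 of 6846 KO barcodes (0.0146%, 0.000370 to 0.0814%). The 41 WT barcodes held 97.5% of the member UMIs of WT, and the KO barcode 57.1% of those of KO. Member share was 7.25 to 79.4% inside the WT group, with a median of 69.3%, whereas the highest barcodes outside it had 1.08 and 0.577% and the median was 0.00950%. In KO the Ig-high barcode stood at 45.9% and the next at 0.280%.

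Most Ig-high WT barcodes were not small fragments: the 41 held 2681 to 59554 UMIs with a median of 26886, and 580 to 6437 genes. At a cell cutoff of 8435 UMIs, 35 of the 41 remained. Those below it included the single lambda chain barcode, with 3558 UMIs, and WT barcode 36, an Igha barcode with 4406. The barcode with most member UMIs held 5.46% of the WT total, so no single barcode made up the WT level. Mitochondrial UMIs were 0.583 to 9.80% of all UMIs of the barcode, under the limit of 10% the study used. Members are part of that total, at a median of 69.3%, so the mitochondrial share of the other UMIs is higher. It was not calculated, and WT barcode 36 had 9.80% at a member share of 64.0%. Jchain was present in 41 of 41 and Mzb1 in 40 of 41.

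All WT Ig-high barcodes had UMIs of at least 4 of 14 marker genes of antibody-secreting cells, with a median of 12. Xbp1, the transcription factor of the secretory program, had 1 to 108 UMIs in every one. The KO barcode had 7012 UMIs, of which 1025 were Ighm and 2151 Igkc, with 17 Jchain UMIs, 8 Xbp1 UMIs and 7 of the 14 markers. The label of antibody-secreting cells therefore matched the markers in WT. In KO it rests on 1 barcode and on fewer markers: Txndc5 had 28 of its 46 marker UMIs, Pou2af1 3 and Irf4 2. Prdm1, Sdc1, Tnfrsf17, Tnfrsf13b, Fkbp11, Slamf7 and Eaf2 had none there.

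A rule that used no member gene, at least 4 of the 14 markers and at least 1 per 1000 UMIs in them, took 72 WT barcodes and 66 KO barcodes. It included all 41 and the 1 Ig-high barcodes. The 31 and 65 others had at most 0.0625% and 0.0298% of their UMIs in members and no UMI of Pou2af1 or Cd79a, a B cell coactivator and a chain of the B cell receptor.

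**Figure D2:**
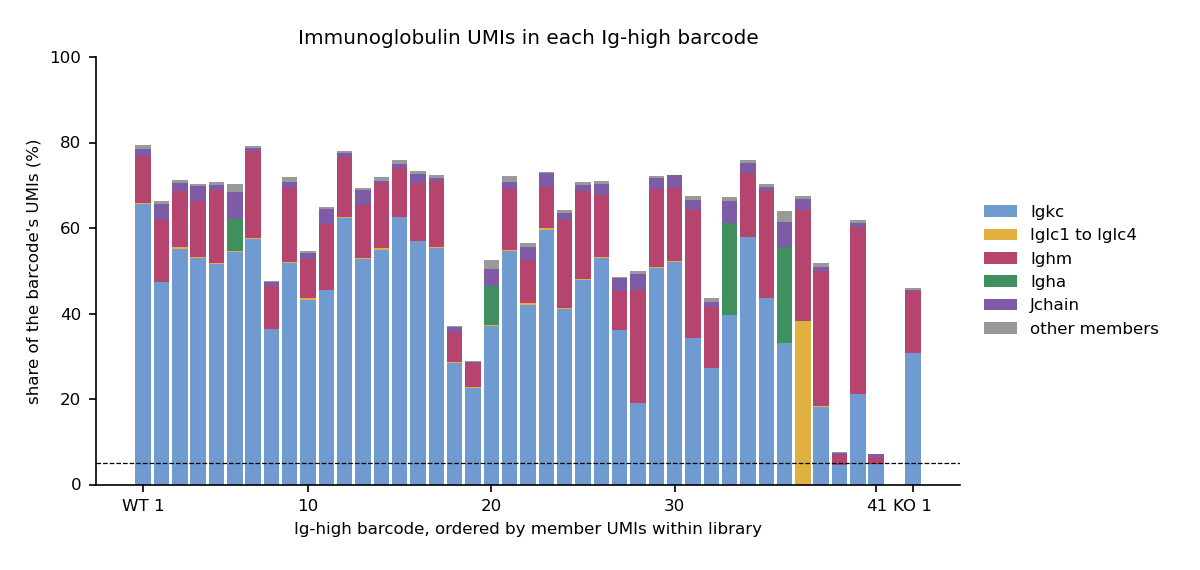
Share of UMIs taken by immunoglobulin genes in each of the 41 WT Ig-high barcodes and the 1 KO barcode, ordered by member UMIs; colors stand for the constant regions and Jchain, and the dashed line is the 5% limit. Most bars are Igkc and Ighm, 4 WT barcodes carry Igha, 1 carries lambda constant UMIs in place of Igkc, and WT barcodes 39 and 41 lie just above the limit.

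Each Ig-high barcode carried a single heavy chain class. The class was the heavy constant gene with at least 10 UMIs and at least 80% of heavy constant UMIs. It was Ighm in 37 WT barcodes and Igha in 4, and the leading gene held at least 99.4% of heavy constant UMIs in each. In the 4 Igha barcodes Igha had 3018, 2962, 2156 and 992 UMIs, while Ighm had 0, 1, 0 and 0. In the Ighm barcodes Ighm had 185 to 7691 UMIs, and only 1 of them held an Igha UMI. IgM and IgA were thus separated barcode by barcode.

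No barcode was called for an IgG class. Of the 19 Ighg2b UMIs in WT, 12 and 3 lay in WT barcodes 33 and 36, which are both Igha barcodes. Ighd contributed 1 UMI to 1 Ig-high barcode, and its other 41 WT UMIs lay outside.

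The light chain was kappa in 40 WT barcodes and lambda in 1, by the same rule on Igkc against the summed Iglc genes. The leading class held at least 98.1% of light constant UMIs, and the lambda barcode had 1360 Iglc1 UMIs beside 3 Igkc UMIs. The KO barcode was IgM and kappa. Iglc2 and Iglc3 are 95.1% identical over 451 bases, so the split of UMIs between them is uncertain.

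Jchain took 3.96 to 6.42% of all UMIs in the 4 Igha kappa barcodes (median 5.43%) and 0.160 to 3.87% in the 36 Ighm kappa barcodes (median 1.41%). The ranges did not overlap but nearly touched, all come from 1 library, and the comparison has no replicate. Igha barcodes 33 and 36 also share the V segments Ighv1-78 and Igkv4-53.

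V segment use was concentrated. A heavy chain V segment was called when it had at least 5 UMIs and at least 80% of the Ighv UMIs of the barcode, which gave a call in 38 of 41 WT barcodes, and in 34 a single Ighv gene held every Ighv UMI. In total 13 Ighv genes were called, 7 of them members and 6 too rare to reach 20 UMIs. Ighv11-2 was called in 16 barcodes, Ighv5-16 in 7, Ighv7-1 in 3, Ighv6-3 and Ighv1-78 in 2 each, and the other 8 in 1 each.

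Light chain segments were called less readily. Over all Igkv and Iglv genes together, only 11 barcodes passed the same limits, because Iglv1 UMIs were present in 37 of the 41 barcodes. Iglv1 was even the light chain segment with most UMIs in 10 of the 40 kappa barcodes. When only segments of the barcode's own light chain class were compared, a choice made after these values were seen, 33 barcodes had a call, with 12 Igkv genes and Iglv1.

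Most called segments had nearly all their UMIs in the Ig-high WT barcodes. Igkv14-126 had 1009 of its 1029 WT UMIs there, in 20 barcodes. Ighv11-2 had 622 of 652, in 18 barcodes. Igkv1-88 had 550 of 566 in 7 barcodes, and Ighv5-16 had 193 of 199 in 8. These 4 segments were spread over many barcodes, with at most 110, 81, 145 and 38 UMIs in any 1.

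Igkv15-103 had 185 of its 198 UMIs there in 4 barcodes, and Ighv7-1 had 96 of 99 in 4. A kappa segment called in WT barcode 6 had 169 of 171 there, and Igkv5-48 had 154 of 158 in 2. Iglv1 had 2483 of 2570 UMIs there, in 37 barcodes, but was called in the lambda barcode alone. Igkv1-110 had 64 of 67 in 1 barcode.

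Some combinations of heavy and light segments recurred between barcodes. A called heavy and light segment were found together in 10 barcodes under the first light chain rule and in 32 under the second. Those 32 formed 14 pairs, of which 3 were shared by 21 barcodes and 11 occurred once. Ighv11-2 with Igkv14-126 was found in 12 barcodes, Ighv5-16 with Igkv1-88 in 6, and Ighv7-1 with Igkv15-103 in 3, all of them IgM kappa. The pairing of VH11 with the kappa segment now named Igkv14-126 is known from B-1 cells, innate-like B cells whose IgM binds phosphatidylcholine.

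Without the 80% limit more barcodes could be compared, and exceptions appeared. Light segments were again compared only within the barcode's own light chain class. With at least 2 UMIs for each, Ighv11-2 led the heavy segments of 18 barcodes and Igkv14-126 led those light segments in all 18. Iglv1, left out by that choice, had more UMIs than Igkv14-126 in some of them, such as 238 against 80 in WT barcode 1. Igkv14-126 led in 1 more, WT barcode 41, with Ighv3-8, on 2 UMIs. Ighv5-16 led in 7 barcodes, 6 of them with Igkv1-88 and 1 with Igkv8-18, so the same heavy segment was also found with another light chain. Ighv7-1 led in 4, and Igkv15-103 led the light segments in 3 of them. In the other, WT barcode 2, Igkv1-88 led with 52 UMIs beside 47 of Igkv15-103.

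In the 12 called Ighv11-2 and Igkv14-126 barcodes, Ighv11-2 had 14 to 74 UMIs and Igkv14-126 20 to 110. In the 6 Ighv5-16 and Igkv1-88 barcodes the ranges were 8 to 38 and 57 to 145, and in the 3 Ighv7-1 and Igkv15-103 barcodes 13 to 37 and 6 to 126. The counts give the segment and not the junction, so barcodes that share a pair are not shown to share a rearrangement or a precursor.

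The IgA barcodes used other segments. WT barcode 6 had 7 Ighv1-7 UMIs and 169 of that kappa segment, seen in no other Ig-high barcode, and barcode 20 had 23 Ighv5-9 and 64 Igkv1-110 UMIs. Barcodes 33 and 36 both had Ighv1-78, with 5 and 10 UMIs, and both had Igkv4-53, with 7 and 5 UMIs, which in barcode 36 was level with Igkv3-1 at 5. None of the 4 shared a segment pair with an IgM barcode. The KO barcode had 7 Ighv1-55 and 20 Igkv5-48 UMIs, a pair not seen in WT, although Igkv5-48 was called in 2 WT barcodes with Ighv5-17 (96 Igkv5-48 UMIs) and Ighv1-59 (58).

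**Figure D3:**
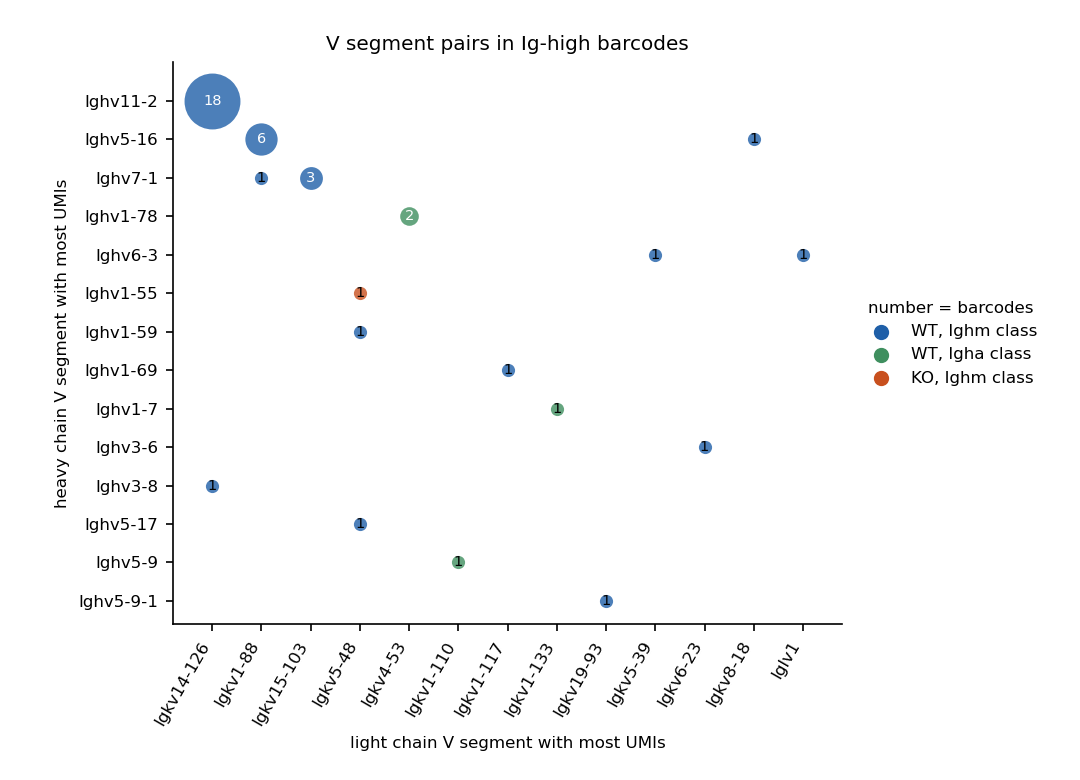
Heavy chain V segment with most UMIs (rows, at least 2 UMIs) against light chain V segment with most UMIs of the barcode's own light chain class (columns), for the WT and KO Ig-high barcodes; numbers and circle areas give barcodes, and colors give the class and library. Ighv11-2 and Igkv14-126 share 18 barcodes, and the other combinations hold 6 barcodes or fewer.

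A few barcodes carried more than 1 set of chains. WT barcode 2, with 52884 UMIs, had 16 Ighv7-1 and 8 Ighv5-16 UMIs together with 52 Igkv1-88 and 47 Igkv15-103 UMIs, that is, both of the pairs found singly elsewhere. Barcode 4 had 81 Ighv11-2 and 16 Ighv2-3 UMIs with 78 Igkv14-126 and 30 Igkv8-24 UMIs. In barcode 32 there were 17 Ighv11-2 and 10 Ighv3-8 UMIs and 1 light segment, Igkv14-126. Whether these droplets held more than 1 cell was not tested.

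Igkv5-45 appeared as a further kappa segment beside a single heavy one. Its UMIs lay in 3 Ig-high barcodes (1, 14 and 35) at 55, 41 and 4, each with Igkv14-126 at 80, 103 and 6, and Ighv11-2 was their only Ighv gene. Igkv5-45 was called in none of them. Barcode 20 similarly had 15 Igkv1-117 UMIs beside 64 of Igkv1-110.

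Iglv1 in kappa barcodes was also set beside the heavy chain class. Per 1000 Igkc UMIs, Iglv1 stood at 15.6 to 66.7 in the 4 Igha kappa barcodes (median 22.4) and at 0 to 15.1 in the 36 Ighm kappa barcodes (median 1.79). The ranges nearly touch, barcodes are not replicates, and Igha barcodes 33 and 36 share Ighv1-78 and Igkv4-53, so no link to the class is drawn. Its highest count, 504 UMIs, was in the Igha barcode 6, where the summed lambda constant genes had 83. The lambda barcode itself had 5 Iglv1 UMIs. The KO barcode had none.

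The genes outside the member list give the identity of these barcodes independently of the rule. WT Ig-high barcodes were compared with the other WT barcodes of at least 1000 UMIs on UMIs outside the members, since members took 61.4% of Ig-high UMIs. Of 14590 genes with at least 20 UMIs, 13.2% were at least 2-fold higher and 15.8% at least 2-fold lower (1929 and 2311 genes). With all UMIs as the base the split was 705 higher and 7988 lower, and the median log2 ratio over all genes moved by -1.37 from 0.19.

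All 14 antibody-secreting cell markers were at least 2-fold higher in the WT Ig-high barcodes, with a median log2 ratio of 7.35. Pou2af1, a coactivator of immunoglobulin transcription, stood at 680 CPM against 0.0627 (log2 ratio 13.40, 12.46 to 14.55). Irf4, a transcription factor needed for plasma cells, stood at 199 against 0.104, and Prdm1, the repressor that drives their differentiation, at 91.5 against 0.293, with UMIs in 29 and 21 of the 41 barcodes. Tnfrsf17, the survival receptor BCMA, stood at 247 against 0.209, and Sdc1, the surface marker CD138, at 178 against 2.10. The smallest ratio was that of Tnfrsf13b, the receptor TACI, at 167 against 54.9 CPM, and it alone was within 2-fold on all UMIs.

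Secretory pathway genes were also higher. Of their 18 genes 17 were at least 2-fold higher and none lower, with a median log2 ratio of 2.74 against 0.19 over all genes tested. With all UMIs as the base, 13 of the 18 were at least 2-fold higher. Herpud1, a component of endoplasmic reticulum degradation, stood at 1412 against 62.7 CPM, Edem1, which targets misfolded glycoproteins, at 762 against 27.4, and Hspa5, the main chaperone of that compartment, at 2563 against 435. Sec61b, a subunit of the translocation channel, stayed just under the limit at 1613 against 833.

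Genes of earlier B cells were split. Of 9 tested, 6 were higher and none lower, with Ebf1 and Bank1 on 3 UMIs each. Cd79a had 501 UMIs in 39 Ig-high barcodes (1146 against 0.125 CPM) and Blnk, an adaptor of the B cell receptor, 110 (252 against 1.18). Pax5, which keeps B cell identity and is shut off in plasma cells, had 0 UMIs in all WT barcodes of at least 1000 UMIs, and 0 in Ig-high ones were also counted for Cd22 and Rag1, Rag2 and Igll1 of precursor B cells. Ms4a1, the B cell antigen CD20, had 12 UMIs in 6 Ig-high barcodes and 1 UMI in the other WT barcodes, too few to be among the genes tested. Vpreb3 had 36 UMIs in 10 Ig-high barcodes (82.4 against 0.0279 CPM). The counts of 0 cannot tell absence from low level.

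Antigen presentation genes were mostly higher. Cd74, the invariant chain of MHC class II, stood at 4780 against 8.05 CPM with UMIs in 40 barcodes, and H2-Ab1 at 158 against 38.3. Ciita, the master regulator of that class, had 0 Ig-high UMIs. Of 5 genes, 4 were higher, H2-Aa on 3 UMIs.

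Among 9 homing and surface genes 5 were higher and none lower, with Ccr9 on 1 UMI. Ly6d stood at 2577 against 2.03 CPM, Ly6c2 at 815 against 98.0, and Ccr10, a chemokine receptor of IgA-secreting cells, at 54.9 against 0.376 in 5 barcodes. Cxcr4, the receptor that holds plasma cells in bone marrow, was at 29.7 against 30.6 CPM, within 2-fold.

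The 10 genes of largest ratio with at least 100 Ig-high UMIs and a 2-fold excess in at least 75% of the barcodes were Pou2af1, Cd79a, Slamf7, Ly6d, Tnfrsf17, Derl3, Eaf2, Cd74, Tent5c and Epcam. Of 555 genes with that many UMIs, 67 met the second condition. Tent5c, a poly(A) polymerase that stabilizes transcripts of secreted proteins, stood at 565 against 0.982 CPM, and Epcam, a cell adhesion molecule, at 462 against 1.07.

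The Ig-high barcodes were low in most LSK genes. Of 8 LSK genes 6 were at least 2-fold lower: Kit, the receptor used in the sort, stood at 34.3 against 104 CPM with 0 to 4 UMIs per barcode, Cd34 at 89.2 against 260, and Dntt at 4.58 against 67.4. Ly6a, which encodes the other sorted antigen Sca-1, was higher, at 1519 against 106 CPM (log2 ratio 3.85, 3.73 to 3.96), with UMIs in 36 of 41 barcodes. Hlf was within 2-fold. Of the 6 lower genes, Mecom and Procr rested on 4 and 1 UMIs, with intervals that included no change. So Ly6a and Kit transcripts, the pair that defines the gate, differed in direction.

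Markers of other cell types were low. All 4 neutrophil granule genes were lower, with Elane 40.3-fold lower on 7 UMIs, as were all 3 mast and basophil genes and all 8 cycling genes. Of 3 tested T and NK genes, 1 was higher (Klrb1c, on 1 UMI) and 1 lower. Of 4 erythroid and megakaryocyte genes, 3 were lower, with Gata1 on 1 UMI and an interval that included no change. WT barcodes 39 and 41, whose member shares were 7.51 and 7.25%, had 17 and 11 Mpo UMIs, 7 and 2 Cd34 UMIs and no Cd79a UMI. Without both, 14 antibody-secreting markers and 17 secretory pathway genes were again higher. Such UMIs were not limited to these barcodes: WT barcodes 8 and 18, at member shares of 47.6 and 37.1%, had 8 and 13 Cd34 UMIs and 6 Mpo UMIs each. Mki67, a cycling gene, had 12 and 15 UMIs in WT barcodes 8 and 19.

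**Figure D4:**
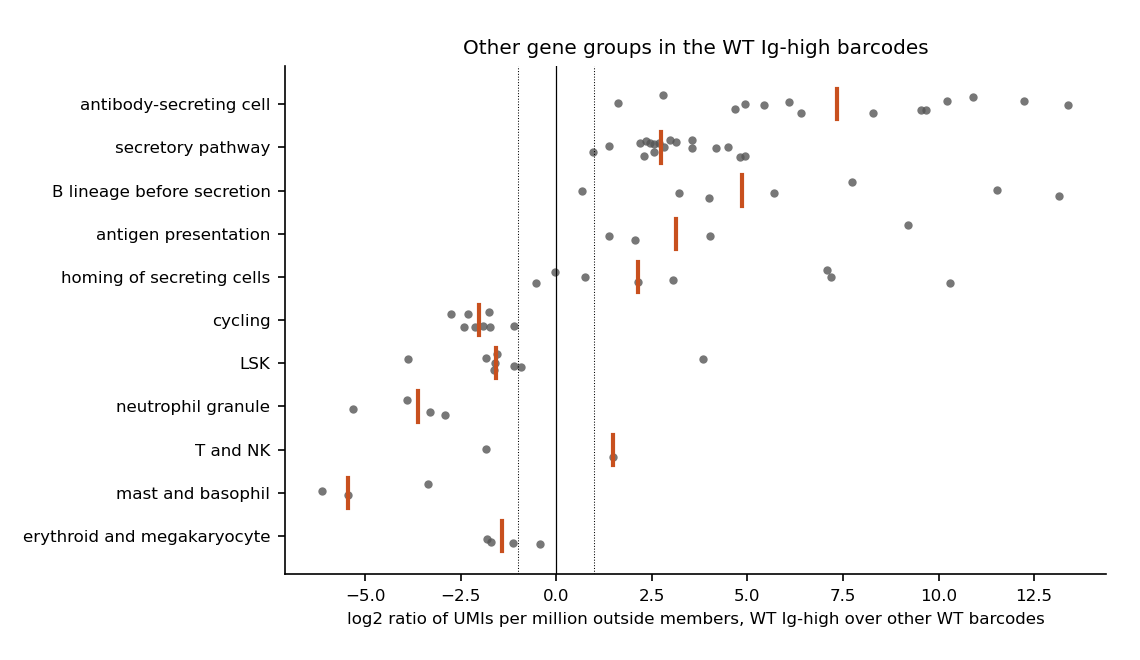
Log2 ratio of CPM outside members, WT Ig-high over other WT barcodes, for each tested gene (points) of the fixed lists (rows); orange bars are list medians with a count of 0 set to 3 counts, dotted lines mark a 2-fold difference, and genes with 0 Ig-high UMIs have no point. Antibody-secreting and secretory pathway genes lie to the right, and the LSK row has Ly6a alone to the right.

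Ighv1-23 was placed elsewhere. It was the heavy V segment member with most UMIs in KO and second in WT (649 WT and 867 KO UMIs), and it had no UMI in any Ig-high barcode of either library. Its UMIs lay in 102 WT and 118 KO barcodes, with up to 96 and 74 in 1 barcode. Barcodes with at least 3 Ighv1-23 UMIs, 44 in WT and 66 in KO, held 581 and 797 of them.

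Those barcodes carried genes of mast cells and basophils in both libraries. Chosen after these values were seen, barcodes with at least 20 UMIs of Cpa3, a protease of mast cell granules, numbered 487 in WT and 565 in KO and held 92.8% and 95.7% of the Ighv1-23 UMIs. Ighv1-23 stood at 117 CPM in Cpa3 barcodes and 0.337 elsewhere in WT (348-fold, log2 ratio 8.44, 8.01 to 8.90), and at 93.2 and 0.237 in KO (393-fold, log2 ratio 8.62, 8.15 to 9.14). It was not in all of them: 12.9% of the WT and 18.9% of the KO Cpa3 barcodes had an Ighv1-23 UMI.

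In the barcodes with at least 3 Ighv1-23 UMIs, Cpa3 stood at 31205 CPM in WT and 22588 in KO, against 388 and 564 in the rest. Ms4a2, a chain of the high-affinity IgE receptor, stood at 429 and 742 against 20.6 and 29.6. Mcpt8, a basophil gene, was also higher, at 1988 and 567 against 146 and 105. Mast cells and basophils were therefore not told apart here. Tph1, which makes serotonin in mast cells, stood at 5118 and 4066 against 30.7 and 43.8, and the mast cell protease gene Mcpt4 at 1129 and 3678 against 107 and 89.5 (both named after their values were seen). Of other antibody genes, these barcodes held 24 Ighm, 43 Igkc and 4 Jchain UMIs in WT, 2, 7 and 0 in KO, and no Cd79a UMI in either. Which transcript the UMIs tag cannot be read from a gene count.

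Ighv1-77 and Ighv1-82 lay mostly in barcodes with Dntt. In WT, 48 of 61 Ighv1-77 UMIs and 50 of 63 Ighv1-82 UMIs lay in the 771 barcodes with at least 2 UMIs of Dntt, the terminal transferase that adds bases at V(D)J junctions. They were spread over 51 barcodes each, with at most 3 and 4 UMIs in 1 barcode. Neither had a UMI in an Ig-high barcode. KO had 1 and 2 UMIs, of which 0 and 1 were in its 437 Dntt barcodes.

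The surrounding segments were then summed. Chosen after these values were seen, the 14 Ighv genes between Ighv1-74 and Ighv1-84 (chr12:115802648-115981134) had 136 UMIs in 84 of the 771 Dntt barcodes (10.9%), 7.03 CPM (5.90 to 8.32), and 30 UMIs in the 6262 other barcodes outside the Ig-high group, 0.242 CPM. Of these genes 8 had UMIs, and Ighv1-77 and Ighv1-82, which prompted the choice, supplied 48 and 50 of the 136 UMIs. The 12 other genes had 38 UMIs in 29 Dntt barcodes, 1.96 CPM (1.39 to 2.70), 4 in the other barcodes outside the Ig-high group, 0.0322 CPM, and 15 in Ig-high barcodes. The log2 ratio of Dntt over other barcodes was 5.93 (4.46 to 7.88) for them, and 15 of the 38 UMIs were of Ighv1-76. In KO these 12 genes had 0 UMIs in the Dntt barcodes and 3 elsewhere.

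The Dntt barcodes themselves differed between libraries. Dntt stood at 471 CPM in them in WT and 198 in KO, and Rag2, part of the recombinase, at 3.10 and 0.829 CPM (60 and 8 UMIs). The part of this in the V segment difference was not tested. The WT Dntt barcodes with a UMI of any of the 14 genes had 231 CPM of Ighm, and those without had 130.

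The remaining heavy segments outside Ig-high barcodes were thinly spread. Ighv1-33 and Ighv1-25, both annotated as pseudogenes, and Ighv1-36 had 68, 21 and 38 UMIs in WT and 20, 0 and 10 in KO, with at most 2 in any barcode and none in Ig-high barcodes. Of the 68 WT Ighv1-33 UMIs 15 lay in Dntt barcodes and 7 in Cpa3 barcodes, and of the 20 KO UMIs 3 and 11. Ighv1-78 had 15 UMIs in 2 Igha barcodes and 11 of its other 15 in Dntt barcodes.

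Ighm also varied between progenitor barcodes. Outside the Ig-high barcodes it stood at 53.8 CPM in WT (52.6 to 55.0) and 6.91 in KO (6.51 to 7.32). In barcodes grouped by marker gene, it was highest in WT in those with Il7r, the interleukin 7 receptor of lymphoid cells, at 205 CPM (190 to 222), then Dntt at 141 (136 to 147) and Flt3, a receptor of multipotent progenitors, at 90.6 (87.9 to 93.2). Elane barcodes, of neutrophil precursors, stood at 46.9 CPM, Hlf barcodes, rich in stem cells, at 38.2 to 41.8 (the interval) and Mcpt8 barcodes, of basophils, at 37.7. The lowest were barcodes with Gata1, the erythroid and megakaryocyte factor, at 16.6 (13.6 to 20.1). The intervals of Hlf and Mcpt8 overlapped, and those of the other neighbours did not. A barcode could be in several groups.

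In KO, Dntt barcodes stood highest at 36.3 CPM (32.6 to 40.3) and Flt3 barcodes next at 15.8, whereas Hlf and Il7r barcodes, at 9.13 and 8.72, overlapped in their intervals. Mcpt8 barcodes stood at 3.56, Elane at 2.88 and Gata1 barcodes at 2.31 (1.06 to 4.39), with overlapping intervals between neighbours. Il7r was the group whose place differed most between libraries, and it held 179 WT and 822 KO barcodes.

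Igkc in the same groups stood between 30.3 (Elane) and 54.9 CPM (Hlf) in WT and between 1.04 (Elane, 107 UMIs) and 2.77 CPM (Il7r, 34 UMIs) in KO, and so differed by over 2-fold between KO groups. The ratio of Ighm to Igkc UMIs was 0.331 in WT free RNA and 0.336 in WT Gata1 barcodes, but 3.01 in Dntt and 3.93 in Il7r barcodes. In KO it was 0.171 in free RNA, 0.900 in Gata1 barcodes (9 and 10 UMIs) and 15.9 in Dntt barcodes (350 and 22 UMIs). The other groups also lay above free RNA. In WT the ratio ran from 0.729 (Hlf) to 2.17 (Flt3) over the Hlf, Mcpt8, Elane and Flt3 barcodes. In KO it ran from 2.78 (Elane) to 11.3 (Flt3) over these and the Il7r barcodes. A ratio above that of free RNA was thus not particular to the Dntt and Il7r barcodes, and only the WT Gata1 barcodes were near it.

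The share of barcodes with an Ighm UMI was also compared at equal depth. After thinning each barcode to 1000 UMIs, 13.2% of WT Dntt barcodes (10.9 to 15.8%) and 1.49% of WT Gata1 barcodes (0.408 to 3.78%) had one, and in KO 4.12% (2.46 to 6.43%) and 0.521% (0.0132 to 2.87%). Before thinning the shares were 79.1 and 29.5% in WT and 40.3 and 3.12% in KO, at median depths of 22290, 21426, 18284 and 16958 UMIs. The Dntt and Gata1 intervals overlapped in KO after thinning and did not in WT. Other KO groups changed places against their CPM, with Il7r at 2.31% and Flt3 at 1.85%, and Gata1 at 0.521% and Elane at 0.249%, so no order is read from these shares in KO.

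**Figure D5:**
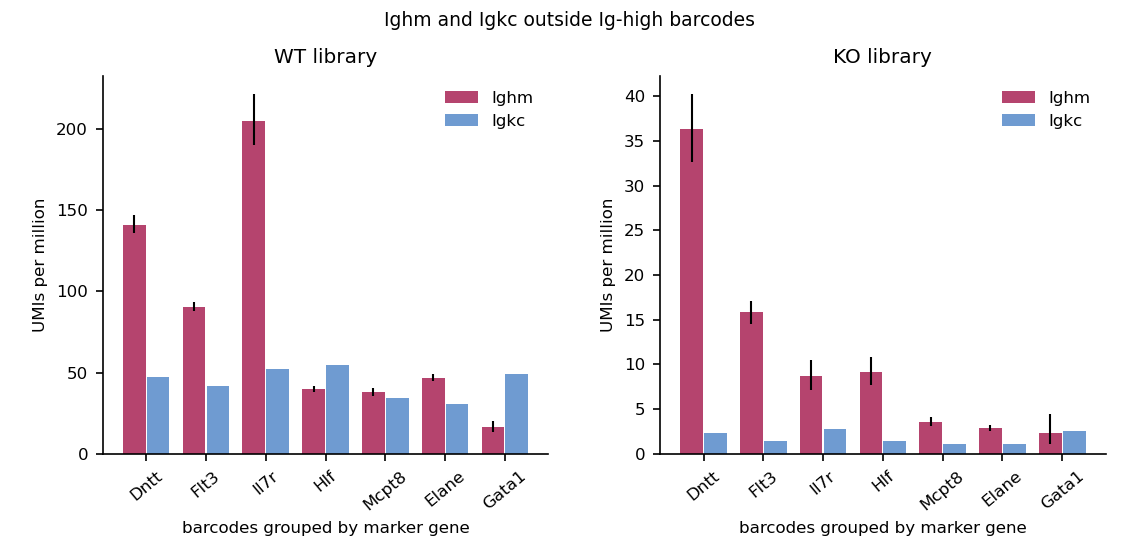
Ighm and Igkc in CPM outside the Ig-high barcodes, in barcodes grouped by marker gene, for WT (left) and KO (right, on its own axis); bars on Ighm are exact Poisson 95% intervals. Igkc runs from 30.3 to 54.9 in WT and from 1.04 to 2.77 in KO, and Ighm is highest with Il7r in WT (205) and with Dntt in KO (36.3).

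Free RNA was measured in the barcodes of 11 to 99 UMIs, of which WT had 406586 and KO 429634. Members held 0.911% of its UMIs in WT (0.905 to 0.917%) and 0.0109% in KO (0.0103 to 0.0114%), 83.8-fold apart. In WT, member levels in free RNA were thus above those in the barcodes of at least 1000 UMIs (0.493%), and far above the 0.0126% of the barcodes outside the Ig-high group.

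In WT free RNA the ratio of Jchain to Igkc was near that of the Ig-high barcodes. Ighm, Igha, Mzb1, Iglc1 and Iglc2 were higher relative to Igkc, which did not hold for all V segments. Igkc stood at 5848 CPM and Ighm at 1937, a ratio of 331 Ighm UMIs per 1000 of Igkc, where the Ig-high barcodes had 276. Jchain had 47.9 and 46.9 UMIs per 1000 of Igkc, Igha 32.5 and 17.9, Mzb1 6.14 and 3.71, Iglc1 6.45 and 3.99, and Iglc2 3.66 and 2.15.

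Iglc3 departed from this. It had 7212 UMIs in WT free RNA (689 CPM) and 720 in all WT barcodes of at least 1000 UMIs (4.98 CPM), so that its CPM was 138-fold higher in free RNA. Per 1000 Igkc UMIs it stood at 118 in free RNA, while the Ig-high barcodes had 516 Iglc3 beside 510231 Igkc UMIs. The UMIs were scattered over 7134 barcodes with at most 2 in each, and no barcode of any size held more than 48. Free RNA barcodes held 70.6% of all Iglc3 UMIs in WT and 9.61% of all Igkc UMIs. KO had no Iglc3 UMI in free RNA. Iglc2, 95.1% identical to it, stood at 21.4 CPM in WT free RNA, and the part of their likeness in the count was not tested.

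By size of barcode, WT Iglc3 fell from 694 CPM at 11 to 30 UMIs to 117 at 100 to under 300 UMIs, and Iglc1 rose from 35.7 to 272. In KO, Igkc rose from 45.1 CPM at 11 to 30 UMIs to 540 at 100 to under 300 UMIs, and stood at 181 at 300 to under 1000 UMIs. Free RNA thus differed in its antibody composition with barcode size in both libraries.

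Free V segments were few. The 5 with most UMIs in WT free RNA were Iglv1 (551), Igkv1-88 (79), Igkv14-126 (27), Ighv11-2 (20) and Ighv1-23 (19), whereas KO free RNA had 73 Ighv1-23 and 6 Igkv5-48 UMIs and 1 of Iglv1. Igkv1-88 stood at 7.54 CPM in free RNA and 3.91 in the larger barcodes, but Igkv14-126 at 2.58 and 7.11. Some small WT barcodes were antibody-rich: 30 of 11 to 99 UMIs held at least 10 member UMIs, up to 37 of 50, and together 0.575% of the free member UMIs. The most in any such KO barcode was 3.

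Barcode sequences were also compared between the libraries. Of the 41 WT Ig-high barcode sequences 23 occurred in the KO data, with at most 83 UMIs each, and they held 1 of the 11220 member UMIs of KO over all barcodes.

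Jchain was the only member with an entry among the RefSeq promoter windows (GRCm38.p6, 250 bases before to 50 after the start). The octamer ATGCAAAT, the motif of immunoglobulin promoters bound by Oct factors and Pou2af1, was searched on both strands, occurred in 1.74% of the 32851 windows, and was not found in that of Jchain.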

How the data were processed

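Single cell RNA-seq libraries of LSK cells (10x Genomics 3′) were analysed, 1 for miR-142 WT CML and 1 for miR-142 KO CML. The authors aligned reads and counted UMIs with Cell Ranger (version 6.1.2 in the methods and the submitters' processing notes, and 4 in the file headers), and the deposited values are raw counts per gene and barcode for mm10, unfiltered for cells. Counts of 3′ tags do not depend on transcript length. Barcodes with at least 1000 UMIs were used, a stricter limit than that of the study. Doublets were kept and not called. CPM is UMIs per 1000000 UMIs. Shares carry exact binomial, levels exact Poisson and ratios exact conditional binomial 95% intervals. With 1 library per group there was no test across genes. A difference was called at 2-fold, with a count of 0 set to 3 counts. The ratio step was tested on simulated data. Gene positions came from GENCODE M21 (GRCm38).

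The members and gene lists were chosen with earlier results of these data known. Named genes were all constant region members, Jchain and Mzb1, V segments called in Ig-high barcodes (full values for those with most UMIs), the 5 V segments with most UMIs in KO and in free RNA, the listed genes, and the 10 of largest ratio in Ig-high barcodes. Exceptions are marked as chosen after their values were seen. Alternatives covered the UMI limits, the Ig-high share, the class and V limits, and the scaling. Python 3 with numpy, scipy and pandas was used.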

Additional observations from a re-analysis of the deposited data

How the results depend on the processing

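With 1 library per group, no replicate could be left out. Member share of UMIs was 0.526% in WT and 0.00598% in KO over all barcodes, 0.504 and 0.00139% at the cell cutoff (8435 and 7693 UMIs), 0.466 and 0.00146% without the barcode of most member UMIs, and 0.0126 and 0.00146% without Ig-high barcodes. The log2 ratio was then -6.46, -8.50, -8.32 and -3.11, always lower in KO, against -7.18. The cell cutoff took the only KO Ig-high barcode (0 left), and the marker rule without members gave 72 and 66 barcodes. Genes higher in Ig-high barcodes numbered 705 on all UMIs and 890 at 4-fold; lower ones numbered 7988 on all UMIs, 3847 at 1.5-fold and 474 at 4-fold. A minimum of 20 UMIs left 22 heavy V calls and 3 pairs. Light V calls were 23 at 60%, 5 at 95% and 33 within the light chain class (added after seeing the data), and pairs 23, 4 and 32. Members held 0.711% of WT and 0.00731% of KO UMIs in barcodes of 1 to 10 UMIs, and 0.561 and 0.0602% at 100 to under 500 UMIs. Barcodes shared between the libraries were 4 at the cell cutoff. Ighv1-23 shares in Cpa3 barcodes were 89.4% in WT and 92.3% in KO at 100 Cpa3 UMIs. Of 93 alternatives 58 stayed within 1.5 times the count or within the counting interval, and none reversed a direction. Shallow counts limit the V segments, whose members rest on 21 to 2570 UMIs each in WT, with 3 or fewer in KO for 22 of 26.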
